A study of Sus scrofa with 5 samples.

Results

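The pluripotent cells of porcine blastoids were compared with the porcine embryonic stem cells (pESCs) that the same study cultured, by the order of their genes. Blastoids are blastocyst-like structures assembled in vitro. Their pluripotent cells were defined as droplet barcodes with at least 11223 unique molecular identifiers (UMIs) in blastoid library 1 or 9805 in blastoid library 2, at least 5 UMIs of POU5F1, at least 4 of DNMT3B, fewer than 15 of CRABP1 and fewer than 10 of ISG15. This rule kept 341 of 7369 barcodes in library 1 (4.63%) and 646 of 8175 in library 2 (7.90%), 987 of 15544 in all. The libraries shared 9 barcodes above the UMI minimum and none of the members. Members were read more deeply than the other barcodes, with a median of 47060 against 29118 UMIs in library 1 and 42094 against 26690 in library 2, and 58 and 75 of them lay above the 95th percentile of all barcodes in their library. Because POU5F1, DNMT3B, CRABP1, ISG15 and the UMI totals chose the cells, their values are given only as a description. Members held a median of 16 and 17 UMIs of POU5F1 in libraries 1 and 2 and 11 and 13 of DNMT3B. At the limits, 17 and 28 members with exactly 5 UMIs of POU5F1 had 80.02 and 71.12 SOX2 UMIs per 1000000, beside 88.1 and 97.5 in 14 and 30 barcodes with 4. For DNMT3B, 32 and 56 members with 4 UMIs had 68.5 and 64.8, beside 56.6 and 61.8 in 46 and 67 barcodes with 3. Over the upper limits, 8 and 18 barcodes with at least 15 UMIs of CRABP1 had 93.95 and 101.0. The 24 and 21 barcodes with at least 10 UMIs of ISG15 had 35.9 and 64.7.

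The study holds 3 bulk RNA-seq libraries of pESCs and 2 single-cell libraries of blastoids. The bulk libraries are labelled as the lines pESC-1, pESC-2 and pESC-3, and their columns are named IVFP25, PA_4P7 and PAP25. The labels do not tie a column to a line, and the paper describes parthenogenetic blastocysts as the origin of the lines although a column name contains IVF. pESCs were grown on mitomycin-treated mouse embryonic fibroblast feeders in 4FIXY, a medium with activin A, IGF1, IL-6, soluble IL-6 receptor α, the WNT pathway inhibitors XAV939 and IWR1, and the ROCK inhibitor Y-27632. The paper made its blastoids from dissociated pESCs, and in its improved method these first formed clusters in 4FIXY without IWR1. The blastoids were collected on day 6 in a medium that likewise held activin A, IGF1, IL-6, soluble IL-6 receptor α, XAV939 and Y-27632, and in addition LIF, BMP4, bFGF, CHIR99021, SB431542, DZNep and TSA. Its concentrations of activin A, IL-6 and the soluble receptor were lower than in 4FIXY. The blastoids were picked by hand before dissociation, and the labels do not say whether the blastoid libraries came from separate cultures, so p-values measure only the spread between these 5 libraries. A bulk library covers a whole culture, in which fewer cells of a type and less RNA per cell cannot be told apart. Sequencing technology, medium, oxygen level and culture format all differ between pESCs and blastoid cells, and their effects cannot be told apart.

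Pluripotency in the epiblast rests on the transcription factors POU5F1, SOX2 and NANOG. Naive cells resemble the epiblast before implantation and primed cells the later epiblast, in which NODAL and activin signalling maintains the state and BMP and WNT signals start differentiation into the streak, amnion and germ cells. Porcine embryonic stem cell lines have been described mainly in primed-like states.

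Within each library, 29886 gene symbols were ranked from the most abundant down, by FPKM in bulk, which is fragments scaled to transcript length and library size, and by summed UMIs in the members. Levels of the members are given as UMIs per 1000000 UMIs of the sum (CPM), which is not scaled to length, so levels are set beside each other only within a gene and the comparison rests on ranks. The log2 rank ratio is the log2 of the blastoid rank over the pESC rank. It is positive where a gene stood nearer the top in pESCs, and a value of 1 means that its rank number was 2 times as large in the blastoid cells. Of 14657 genes tested, 10140 passed an adjusted p of 0.05 by limma (69.2%), with 5335 higher in pESCs (36.4%) and 4805 lower (32.8%). The ratio was at least 1 in size for 1236 higher (8.43%) and 1445 lower genes (9.86%), the median over all genes was 0.03, and ranks did not overlap between the groups for 82.2% of genes. An exact permutation test of 3 against 2 libraries cannot go below p = 0.1 for a single gene. On log2 values with a pseudocount of 1 or 5 the median of all genes moved to -0.25 or -0.15 and higher genes made up 39.1% or 38.7% of those called, against 52.6% on ranks and 63.4% on ranks with no filter. Counts and medians of the gene lists below are therefore to be read against those of all genes, 36.4% higher, 32.8% lower and a median of 0.03. A gene was tested where its mean log2 rank over both groups was that of rank 15000 or nearer the top. Of the tested genes, 624 met this limit through pESCs only and 622 through members only, which favours a call in that direction. Among the list genes named below, FGF4, CISH, BCL3, LEFTY2, CER1, SOX17, FOXA2, T, IGF2, DLK1, SNRPN and NNAT passed through pESCs only, and NR5A2, COL3A1, DCN, ADM, WNT6, HAND1, ISL1 and TFAP2A through members only. Outside the lists, H3F3A and ATP5G3 also passed through pESCs only.

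Spearman's rho over the 14657 genes, which are not independent of each other, was 0.976 to 0.980 between pESC libraries and 0.996 between the members of the blastoid libraries. It was 0.744 to 0.773 between pESCs and members and 0.675 to 0.706 between pESCs and the other blastoid cells. Between the members and the other cells of either library it was 0.957 to 0.966, with 0.962 and 0.963 within libraries 1 and 2, which is above the values between members and pESCs.

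Features of the gene models moved with the ratio. Of the 2928 tested genes with the longest spans, with a median of 166 kb, 71.0% were lower in pESCs and 6.66% higher, whereas in the second shortest group of 2928 genes 53.4% were higher and 16.2% lower. Of 201 genes with no annotated 3′ untranslated region (UTR), 71.1% were higher, with a median of 0.75, against 28.4% and a median of -0.09 for 7179 genes whose 3′ UTR measured 1000 bases or more. Of 4656 symbols with 0 UMIs in every barcode above the minimum, 32 passed the filter, which they could do only by standing high in pESCs, so that their direction was fixed by the filter. Droplet libraries count reads near the 3′ end of a transcript, and FPKM counts reads over its whole length. The part of these features in each result below was not tested beyond the values given for single genes and lists.

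**Figure D1:**
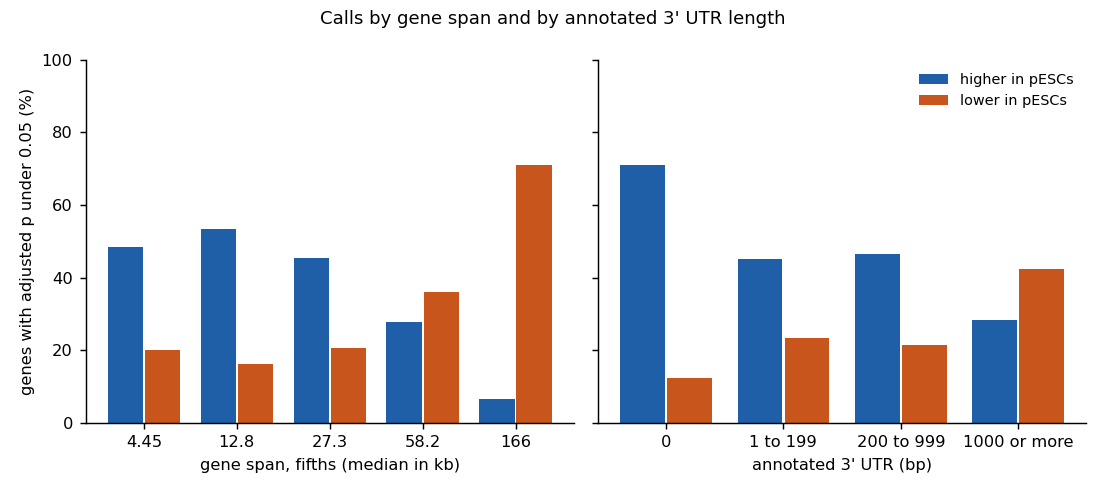
Share of tested genes called higher or lower in pESCs, in percent, by 5 classes of gene span with equal numbers of genes and by length of the annotated 3′ UTR. The share of lower genes reaches 71.0% in the class with the longest spans, and the share of higher genes reaches 71.1% where no 3′ UTR is annotated.

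The last 30 bases of the coding sequence, stop codon included, of the genes LIN28A, SOX2, LEFTY2 and FST are shown because the RefSeq gene models used here, on Sscrofa11.1 (susScr11), end for these genes at the stop codon, with 0 bases after it, so that reads from any longer 3′ end would lie outside the model. Capitals mark the stop codon, and the coordinates are chr6:83818521-83818550 on the plus strand, chr13:119669406-119669435 on the plus strand, chr10:13849052-13849081 on the minus strand and chr16:32811353-32811382 on the plus strand.
LIN28A: cctgccatgctcccagaggctcagaatTGA
SOX2: aacggtacactgcctctctctcacatgTGA
LEFTY2: gcgcccgtgccaaggaagctggagccgTAG
FST: tttcctatatcttctattctagagtggTAA

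Core pluripotency genes stood nearer the top in pESCs. Without POU5F1, which was used to choose the cells, 3 of 4 tested were higher, all by at least 1, beside 36.4% and 8.43% of all genes. None was lower, and the median was 2.27. With POU5F1 the counts were 4 of 5 and the median 1.95. With only genes whose annotated 3′ UTR measures at least 200 bases, of these 5 genes 2 remained, POU5F1 and SALL4, and the only one higher was POU5F1, a gene of the rule. SOX2, which pairs with POU5F1 on DNA, measured 241, 227 and 182 FPKM in IVFP25, PA_4P7 and PAP25 and 108 and 113 CPM in the members of blastoid libraries 1 and 2. It ranked 240.0, 246 and 293 in pESCs and 1599.5 and 1505 in members, so the groups did not overlap, and the log2 rank ratio was 2.58 ± 0.13, adjusted p = 2.35e-05 by limma. In the other blastoid cells SOX2 was at 22.7 and 28.8 CPM. After thinning each cell to 9800 UMIs, 60.4% and 62.5% of members held a SOX2 UMI, against 3.95% and 4.27% of collagen-rich cells, which should lack it, and before thinning, at median depths of 47060 and 42094 UMIs against 25132 and 20558, 90.6% and 91.3% against 12.9% and 9.76%.

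LIN28A, an RNA-binding protein that blocks let-7 maturation, gave the highest ratio of the list. It stood at 545, 547 and 455 FPKM in pESCs and 24.3 and 22.0 CPM in members, with a ratio of 5.77 ± 0.12 and adjusted p = 2.09e-06. The members' level was close to that of other cells, at 19.5 and 18.2 CPM, and of droplets with 10 to 100 UMIs, at 17.7 and 17.5 CPM. After thinning to 9800 UMIs, 19.1% and 18.4% of members held a LIN28A UMI. The shares were 14.6% and 14.6% in other cells and 4.57% and 2.13% in collagen-rich cells. The gene spans chr6:83806178-83818550 on the plus strand, and its model ends at the stop codon shown above. NANOG, the third core factor, measured 25.7, 41.9 and 12.9 FPKM in pESCs and 5.54 and 7.22 CPM in members, with a ratio of 1.95 ± 0.42 and adjusted p = 0.00703, and its symbol covers 2 loci. NANOG was at 0.356 and 0.506 CPM in other cells, so it was low in members but lower still outside them. POU5F1 itself stood at 639, 506 and 432 FPKM against 383 and 449.9 CPM (ratio 1.32), and SALL4, a zinc-finger partner of these factors, at 90.8, 97.9 and 100.4 FPKM against 211 and 207 CPM with a ratio of 0.17 ± 0.13 and adjusted p = 0.295.

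**Figure D2:**
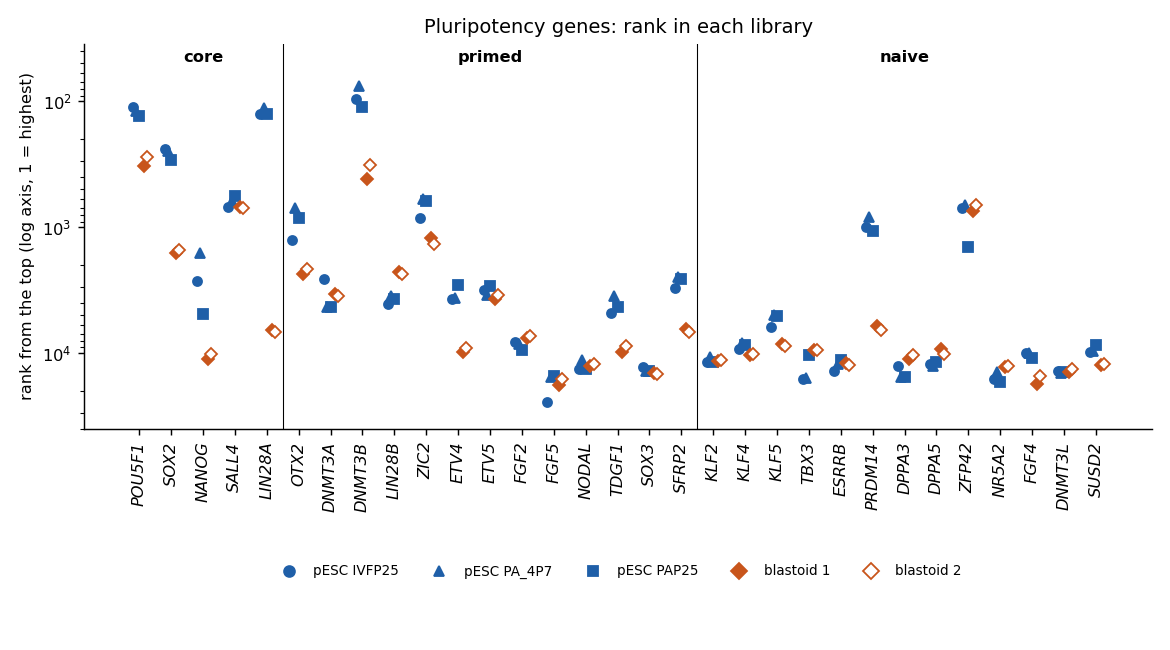
Rank of core, primed and naive pluripotency genes in each of the 5 libraries, on a log axis with rank 1 as the most abundant gene. Each point is 1 library, and SOX2, LIN28A and PRDM14 show pESC points nearer the top than the blastoid points, with ratios of 2.58, 5.77 and 2.71.

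Primed pluripotency genes were called in both directions. Without DNMT3B, a gene of the rule, 5 of 11 tested were higher and 2 lower, beside 36.4% and 32.8% of all genes, with a median of 0.18 beside 0.03 over all genes, and 5 to 7 were higher and 1 to 3 lower over 24 alternative settings, with 1 lower when PA_4P7, PAP25 or either blastoid library was left out. Over these settings the median without DNMT3B ran from 0.05 to 1.04 on log2 ranks. In other units it was 0.01 to 0.34 on log2 values and 0.08 on normal scores. With DNMT3B the counts were 6 and 2 of 12 and the median 0.55. DNMT3B, a de novo DNA methyltransferase, stood at 771, 769.6 and 564 FPKM against 318 and 399.5 CPM (ratio 1.97). OTX2, a homeobox factor of the primed epiblast, was at 52.6, 87.0 and 71.2 FPKM against 77.6 and 82.6 CPM, with a ratio of 1.30 ± 0.25 and adjusted p = 0.00405. The zinc-finger gene ZIC2 had a ratio of 0.92 ± 0.18, the FGF-responsive factor ETV4 1.48 ± 0.13, the NODAL co-receptor TDGF1 1.16 ± 0.13 and the WNT modulator SFRP2 1.31 ± 0.11. All 4 were also more abundant in members than in other blastoid cells, as ZIC2 shows at 133 and 124 CPM against 20.6 and 26.1 CPM.

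LIN28B, the paralog of LIN28A, went the other way. It stood at 15.9, 19.8 and 17.9 FPKM against 80.5 and 77.4 CPM, a ratio of -0.72 ± 0.09 with adjusted p = 0.000844. Its gene spans 123 kb, and with ratios centred by gene span, which subtracts the median of genes of like span, it was -0.11 with adjusted p = 0.274. FGF2, a growth factor used in primed cultures, had a ratio of -0.21 ± 0.07 with adjusted p = 0.0471, which became 0.0711 without PA_4P7, 0.0619 without PAP25, 0.133 without blastoid library 1 and 0.21 without blastoid library 2. Centred by transcript length in the same way FGF2 was 0.02 with adjusted p = 0.876, and centred by span -0.08 with adjusted p = 0.393. DNMT3A, ETV5, NODAL and SOX3 did not pass, with ratios of -0.08, 0.18, -0.03 and 0.10. DNMT3A, the other de novo methyltransferase, measured 26.8 FPKM in IVFP25 and 15.3 and 15.0 in the others. It was called lower without IVFP25, at -0.33 with adjusted p = 0.00974, and higher when centred by length, at 0.76 with adjusted p = 0.0326. SOX3 was called lower when centred by span, at -0.23 with adjusted p = 0.00608. FGF5, a marker of the primed mouse epiblast, was below the filter, at 0, 0.0966 and 0.159 FPKM and 0.224 and 0.503 CPM.

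Naive pluripotency genes moved in both directions. Of 13 tested, 5 were higher and 4 lower, beside 36.4% and 32.8% of all genes. The median was -0.02, or 0.03 without IVFP25 and 0.02 without PAP25. Of the 11 that met the rank limit through both groups, 4 were higher and 3 lower. PRDM14, a repressor active in pluripotent and germ cells, stood out at 65.1, 75.4 and 57.0 FPKM against 27.3 and 23.7 CPM, a ratio of 2.71 ± 0.13 with adjusted p = 1.75e-05. Its ranks were 989, 835 and 1063 in pESCs and 6046 and 6515 in members, and its level in other blastoid cells was 2.22 and 1.82 CPM. The annotated 3′ UTR of PRDM14 is 184 bases long, and the gene spans chr4:65273988-65295362 on the plus strand.

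The other naive genes showed no single direction, and without blastoid library 1 or 2 the list held 2 or 1 lower genes. KLF5, KLF4, FGF4 and SUSD2 were higher in pESCs, with ratios of 0.67 ± 0.11, 0.25 ± 0.06, 0.66 ± 0.08 and 0.40 ± 0.07. DPPA3, DPPA5, NR5A2 and TBX3 were lower, with ratios of -0.43 ± 0.10, -0.34 ± 0.06, -0.30 ± 0.08 and -0.54 ± 0.19. Centred by gene span, KLF4 was -0.07 with adjusted p = 0.473 and SUSD2 0.02 with adjusted p = 0.831, while NR5A2 and ESRRB were called higher, at 0.32 with adjusted p = 0.0151 and 0.69 with adjusted p = 0.00039. Centred by length, the adjusted p was 0.0721 for KLF5, 0.636 for KLF4 and 0.0768 for TBX3. KLF2 was called lower under both, at -0.31 by length and -0.25 by span, with adjusted p = 0.0239 and 0.0445. With members held to at most 2 GATA3 UMIs, DPPA5 was called higher, at 0.26 with adjusted p = 0.0222, and the adjusted p was 0.0997 for DPPA3 and 0.427 for TBX3. Several of these calls were lost without 1 library. Without blastoid library 1 the adjusted p was 0.0973 for KLF4, 0.0776 for NR5A2 and 0.147 for TBX3, and without blastoid library 2 it was 0.0732, 0.101 and 0.142, and 0.0749 for DPPA3. TBX3 also missed the threshold without IVFP25, at 0.11, and without PA_4P7, at 0.114. KLF2, ESRRB, ZFP42 and DNMT3L did not pass, at 0.00, -0.02, -0.32 and -0.05. ZFP42 (REX1) was abundant in both, at 89.5, 91.2 and 43.6 FPKM against 199 and 219 CPM. KLF17, TFCP2L1, DPPA2, DPPA4 and ARGFX were below the filter, and KLF17 was listed at 0 in all pESC libraries and had 0 UMIs in the members of library 1, which allows up to 0.168 CPM for counting error only.

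Germ cell genes gave no single direction, in a comparison where 36.4% of all genes were higher and 32.8% lower. Of 6 tested, PRDM14 was higher, and TFAP2C and PRDM1 were lower, with ratios of -1.03 ± 0.15 and -0.99 ± 0.11. TFAP2C, a factor of both germ cells and trophectoderm, stood at 4.80, 8.20 and 3.61 FPKM against 52.0 and 45.2 CPM, and PRDM1, a repressor of the somatic programme, at 0.309, 0.625 and 2.11 FPKM against 27.1 and 27.3 CPM. The list median was 0.39, or 0.05 for the 5 genes that met the rank limit through both groups. It was 0.65 without IVFP25 and 0.17 without PA_4P7, and 2 genes were higher without IVFP25 or PAP25.

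NODAL and activin genes were called in both directions. Of 19 tested, 10 were higher in pESCs and 5 lower, beside 36.4% and 32.8% of all genes. The median was 0.25, and without LEFTY2 the counts were 9 and 5 of 18 and the median 0.22. Of the 17 that met the rank limit through both groups, 8 were higher and 5 lower, with a median of 0.20. Over 24 alternative settings 4 to 10 were higher and 3 to 6 lower, with 4 and 3 without blastoid library 1, 3 lower without blastoid library 2, and a median just below 0 when centred by gene span. FOXH1, the factor that brings SMAD2 to NODAL targets, stood at 47.3, 33.7 and 21.2 FPKM against 1.62 and 1.31 CPM, a ratio of 2.71 ± 0.31 with adjusted p = 0.000431. FST, the activin-binding follistatin, was at 205, 184 and 200.3 FPKM against 154 and 182 CPM, with a ratio of 1.68 ± 0.14 and adjusted p = 0.000132, and members exceeded other cells, at 20.5 and 24.6 CPM. Its gene model, like that of LEFTY2, ends at the stop codon shown above. LEFTY2, a secreted inhibitor of NODAL and one of its targets, measured 7.16, 64.8 and 7.01 FPKM and had 0 UMIs in the members of both libraries, which allows up to 0.168 and 0.101 CPM, the level of 3 counts. PA_4P7 was the high library. No ratio is given, since the members' ranks are those of genes at 0.

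Of the intracellular transducers, SMAD2 and SMAD4 were lower and SMAD3 did not pass, at 0.20, or -0.01 without PAP25. SMAD2, which carries the NODAL signal, stood at 3.81, 3.58 and 4.14 FPKM against 92.0 and 97.2 CPM, a ratio of -2.22 ± 0.07 with adjusted p = 4.96e-06. SKIL, a SMAD repressor, had a ratio of -1.25 ± 0.09, and the shared transducer SMAD4 one of -0.40 ± 0.12, with an adjusted p of 0.0228 that became 0.154 without blastoid library 1 and 0.105 without blastoid library 2. Centred by length and by span, SMAD4 was 0.08 with adjusted p = 0.537 and -0.02 with adjusted p = 0.842. SMAD2 and SKIL differ in span, at 96.0 and 29.3 kb.

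PAP25 was the highest pESC library for several genes of the streak and definitive endoderm. FOXA2, a factor of endoderm and node, measured 13.2, 15.5 and 81.8 FPKM, against 0.0560 and 0.101 CPM in members, which are 1 and 3 UMIs. These values lie at or below the level of 3 counts, so the size of its ratio rests on members' ranks near that level. FOXA2 met the rank limit through pESCs only, which favours a positive ratio. The ratio was 3.02 ± 0.80 with adjusted p = 0.0152, and without PAP25 it was 2.15 with adjusted p = 3.78e-05. Without blastoid library 1 or 2 the adjusted p was 0.0717 or 0.0657. The FOXA2 gene spans chr17:29997397-30001704 on the minus strand. FPKM and CPM have no common unit, so these values show only that PAP25 was the highest pESC library.

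T (brachyury), a factor of the primitive streak, was likewise highest in PAP25, at 4.41, 3.09 and 40.6 FPKM against 0.0560 and 0.0336 CPM, 1 UMI in each library. The level of 3 counts is 0.168 and 0.101 CPM, so the size of the ratio of T rests on members' ranks below that level. T met the rank limit through pESCs only, which favours a positive ratio. Its ratio was 2.07 ± 0.75 with adjusted p = 0.0473, 1.25 with adjusted p = 0.000142 without PAP25, and the adjusted p was 0.144 and 0.151 without blastoid libraries 1 and 2. SOX17, an endoderm and germ cell factor, stood at 1.73, 1.82 and 26.1 FPKM against 0.336 and 0.134 CPM and did not pass, with adjusted p = 0.077, but did without PAP25, with a ratio of 0.77 and adjusted p = 0.000287. LHX1 measured 0.586, 0.790 and 12.9 FPKM against 0.672 and 1.07 CPM, with adjusted p = 0.152 and 0.00893 without PAP25. CER1, a secreted NODAL and BMP antagonist, was at 0.830, 4.85 and 14.2 FPKM against 0.392 and 0.369 CPM, with a ratio of 1.14 ± 0.37 and adjusted p = 0.0327, which became 0.0666 without PA_4P7, 0.118 without blastoid library 1 and 0.114 without blastoid library 2. Centred by length and by span, the adjusted p was 0.0832 and 0.0884 for T and 0.0558 and 0.0929 for CER1. SOX17, LHX1 and CER1 were named after their values were seen.

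Over the streak and mesoderm list, 3 of 8 tested genes were higher and 2 lower, beside 36.4% and 32.8% of all genes. The list median was 0.39, or 0.23 without PAP25. Of the 6 that met the rank limit through both groups, 2 were higher and 1 lower, with a median of 0.39. GSC, a homeobox gene of the organizer, and TBX6, a T-box factor of mesoderm, had ratios of 0.46 ± 0.09 and 0.41 ± 0.08, while HAND1, a factor of extraembryonic mesoderm and trophoblast, was lower at -1.96 ± 0.25, and MESP1 at -0.40 ± 0.05. Centred by length and by span, none of the 8 was higher, with GSC at 0.16 and 0.21 (adjusted p = 0.317 and 0.137) and TBX6 at 0.09 and 0.09 (adjusted p = 0.328 and 0.241). HAND1 was at 0.143 FPKM in PAP25, listed at 0 in the others, and at 41.5 and 23.8 CPM in members and 139 and 96.5 CPM in other cells. It met the rank limit through members only, which favours a negative ratio. In the hypoblast list 3 of 13 were higher, 1 lower and 9 without a call, with a median of 0.38, or 0.22 without PAP25, and 5 were higher without IVFP25 or PAP25, 1 without blastoid library 1 and 0 without blastoid library 2. Of the 10 hypoblast genes that met the rank limit through both groups, 2 were higher and 1 lower, with a median of 0.11. COL4A1 and COL4A2, basement membrane collagens, had ratios of 0.86 ± 0.20 and 0.58 ± 0.18, and GATA6, a hypoblast factor, -0.43 ± 0.15. The adjusted p of COL4A1 became 0.0616 without blastoid library 2. That of COL4A2 became 0.0764, 0.0661, 0.0949 and 0.14 without PA_4P7, PAP25 and blastoid libraries 1 and 2. That of GATA6 became 0.115, 0.114, 0.203 and 0.0974 without IVFP25, PA_4P7 and blastoid libraries 1 and 2, and 0.169 in members with at most 2 GATA3 UMIs.

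**Figure D3:**
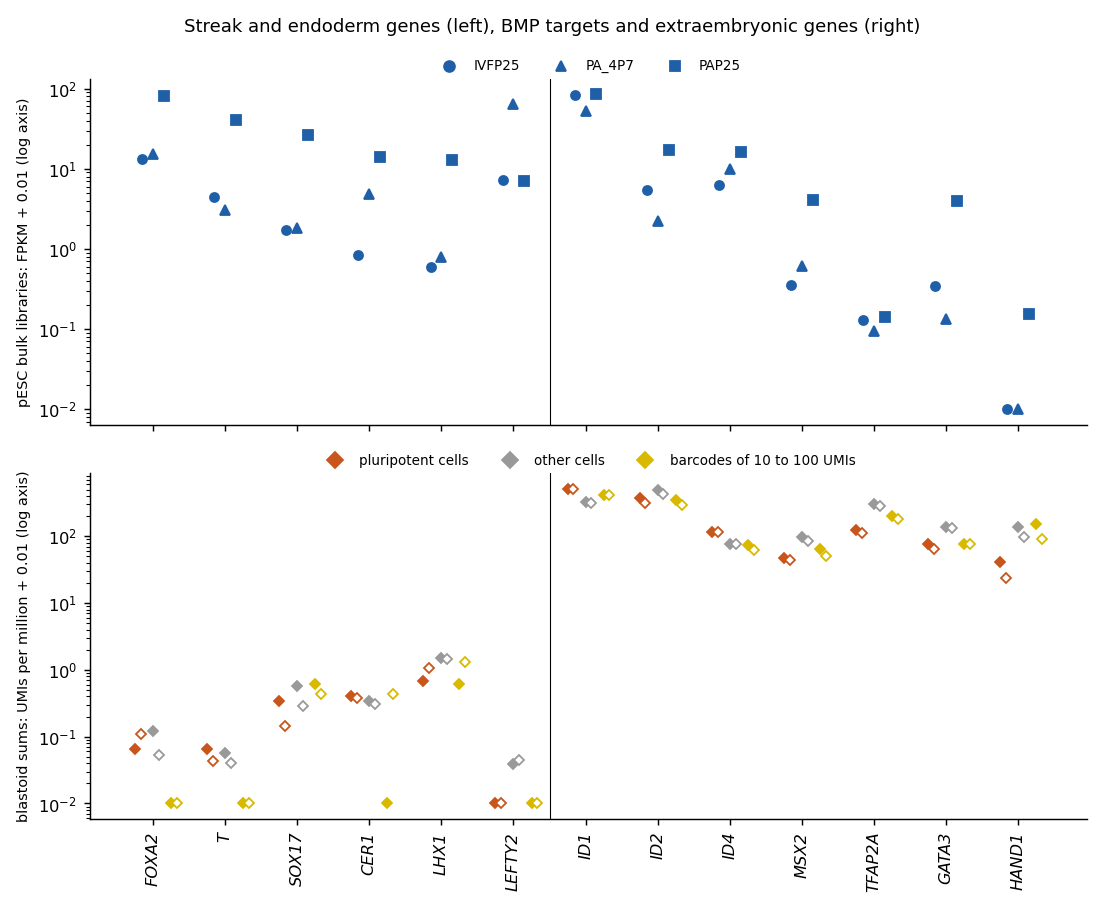
Values of streak and endoderm genes and LEFTY2 (left) and of BMP targets and extraembryonic genes (right), on log axes after adding 0.01, in FPKM for the pESC libraries (top) and in CPM for members, other cells and barcodes of 10 to 100 UMIs (bottom; filled symbols library 1, open symbols library 2). PAP25 is the highest pESC library for FOXA2 and T, and ID2 is above 300 CPM in members of both blastoid libraries and at 2.22 to 17.3 FPKM in pESCs. FPKM and CPM have no common unit.

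BMP pathway genes stood nearer the top in the blastoid cells. Of 17 tested, 11 were lower in pESCs, 7 of them by at least 1, beside 32.8% and 9.86% of all genes. The list held 2 higher genes, beside 36.4% of all genes, and its median was -0.77. Over 24 alternative settings, 9 to 13 were lower and the median stayed below 0, at -1.50 to -0.69 on log2 ranks. In other units it was -1.61 to -1.19 on log2 values and -0.37 on normal scores. ID2, an inhibitor of helix-loop-helix factors and a direct BMP target, measured 5.35, 2.22 and 17.3 FPKM against 368 and 309 CPM, a ratio of -4.13 ± 0.39 with adjusted p = 0.000217. Its level in other blastoid cells was 493 and 428 CPM and in droplets with 10 to 100 UMIs 354 and 291 CPM, and it ranked 7653, 10000.0 and 3822 in pESCs and 338 and 427 in members. ID1 stood at 83.8, 52.5 and 84.7 FPKM against 514 and 502 CPM, with a ratio of -1.83 ± 0.26 and adjusted p = 0.00119, and was higher in members than in other cells, at 328 and 309 CPM. ID4 followed at 6.32, 9.87 and 16.0 FPKM against 117 and 114 CPM, with a ratio of -1.92 ± 0.23. ID3 measured 77.9, 37.8 and 142 FPKM against 288 and 247 CPM and did not pass, with adjusted p = 0.355, but did without PAP25, with a ratio of -1.23 and adjusted p = 0.0307. The spans of ID1 and ID2 are 1.23 and 2.45 kb. PAP25 was the highest pESC library for ID1, ID2, ID3 and ID4.

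The BMP receptors were lower as well. BMPR1A was at 10.6, 13.5 and 14.2 FPKM against 160.3 and 159 CPM and BMPR1B at 0.429, 1.03 and 2.93 FPKM against 71.1 and 71.5 CPM, with ratios of -2.35 ± 0.11 and -2.13 ± 0.13. Their genes span 149 and 499 kb and lie in the class of the longest spans, and BMPR1B was -1.29 centred by length and -0.95 centred by span. The higher genes were BAMBI, a decoy receptor, at 0.80 ± 0.13, and the ligand BMP2, at 0.43 ± 0.14 with adjusted p = 0.0326, which became 0.117 and 0.123 without blastoid libraries 1 and 2. Centred by length and by span, BMP2 was 0.29 with adjusted p = 0.0941 and 0.05 with adjusted p = 0.776. ID1, ID3 and ID4 were named after their values were seen.

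Trophectoderm genes stood nearer the top in the blastoid cells, with a list median of -1.05. Of 16 tested, 13 were lower in pESCs, 10 by at least 1, beside 32.8% and 9.86% of all genes, and only TEAD4 was higher. Of the 14 that met the rank limit through both groups, 11 were lower and 1 higher, with a median of -1.05. Over 24 alternative settings, 8 to 14 of the whole list were lower and the median stayed below 0. It lay between -1.54 and -0.44 on log2 ranks. In other units it was -2.62 to -1.77 on log2 values and -0.59 on normal scores. TFAP2A, a factor of trophectoderm and surface ectoderm, measured 0.120, 0.0845 and 0.133 FPKM against 122 and 113 CPM, a ratio of -3.43 ± 0.07 with adjusted p = 2.07e-06. It met the rank limit through members only, which favours a negative ratio. GATA3, an early trophectoderm factor, was at 0.339, 0.122 and 3.97 FPKM against 77.6 and 63.7 CPM, with a ratio of -2.21 ± 0.24, and SFN, an epithelial 14-3-3 protein, at 4.92, 1.62 and 1.18 FPKM against 83.2 and 66.4 CPM, with a ratio of -2.02 ± 0.18. TEAD4, which acts upstream of the trophectoderm programme, stood at 25.2, 22.9 and 18.2 FPKM against 13.3 and 13.1 CPM, with a ratio of 1.46 ± 0.13.

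These genes were also abundant in the other blastoid cells and in droplets with few UMIs, which hold mainly free RNA. TFAP2A was at 300.3 and 283 CPM in other cells and 198 and 180.4 CPM in droplets with 10 to 100 UMIs, and GATA3 at 136 and 132 CPM and 77.4 and 77.2 CPM. Thinned to 9800 UMIs, 33.7% and 31.1% of members held a GATA3 UMI against 29.9% and 29.0% of collagen-rich cells, and 45.7% and 41.95% against 29.5% and 21.0% held TFAP2A. Before thinning the GATA3 shares were 62.5% and 54.5% against 46.8% and 44.2%. Those shares were read at median depths of 47060 and 42094 UMIs against 25132 and 20558. Whether collagen-rich cells express GATA3 and TFAP2A themselves was not tested. The thinned GATA3 shares of members lay within 4 percentage points of theirs, whereas the thinned TFAP2A shares and the GATA3 shares before thinning were further above them. With members held to at most 2 GATA3 UMIs, which selects on GATA3, the ratio of TFAP2A was -1.76 and that of GATA3 -0.44 with adjusted p = 0.117, and with a set share of 10% of the members' UMIs subtracted as free RNA TFAP2A was -3.25. Among surface ectoderm and amnion genes, 3 of 5 were lower, beside 32.8% of all genes, or 1 of the 3 that met the rank limit through both groups. Without PAP25 1 gene was higher. The lower genes were TFAP2A, TP63 at -0.73 ± 0.07 and ISL1 at -0.71 ± 0.13. ISL1 became -0.32 with adjusted p = 0.0658 in members with at most 2 GATA3 UMIs, and TP63 became -0.02 with ratios centred by gene span, at adjusted p = 0.875.

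**Figure D4:**
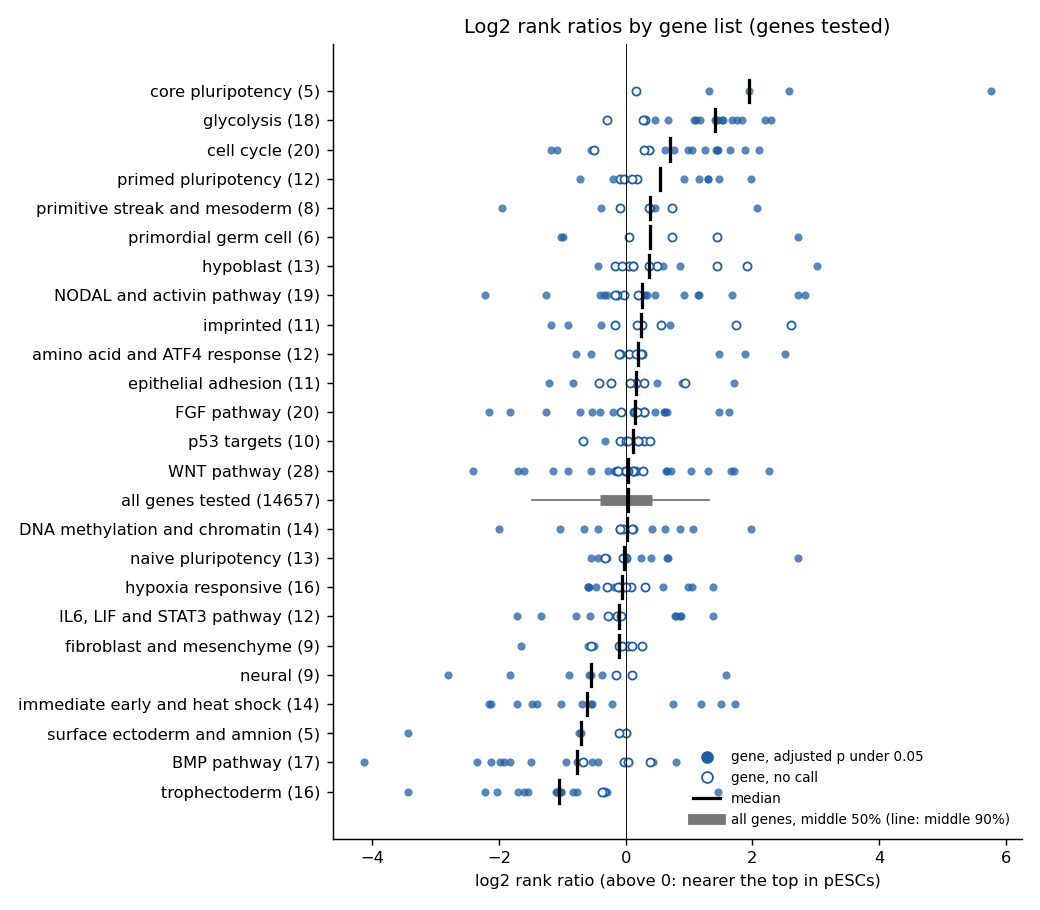
Log2 rank ratios of the tested genes in each of 24 gene lists, with the list median, ordered by median, with the middle 50% and 90% of all genes tested as a bar and a line. Filled points have an adjusted p under 0.05 and open points do not. Positive values mean nearer the top in pESCs. Core pluripotency (1.95, or 2.27 without the rule gene POU5F1) and glycolysis (1.41) lie at the upper end and trophectoderm (-1.05) and BMP (-0.77) at the lower end.

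WNT pathway genes were called in both directions, with 9 of 28 higher (4 of 29 without blastoid library 2), 8 lower and a median of 0.03, which was 0.01 to 0.12 without 1 library and fell below 0 on log2 values with a pseudocount of 1 or 5. Over all genes tested, 36.4% were higher and 32.8% lower. Of the 24 WNT genes that met the rank limit through both groups, 7 were higher and 7 lower. The receptors FZD2 and FZD7 and the transducer CTNNB1 were higher, with ratios of 2.27 ± 0.11, 1.66 ± 0.12 and 1.72 ± 0.11. FZD2 measured 75.2, 66.5 and 67.5 FPKM against 44.3 and 38.9 CPM. The nuclear factor TCF7L2, the co-receptor LRP6 and the ligand WNT6 were lower, at -2.41 ± 0.13, -1.70 ± 0.10 and -1.61 ± 0.20, and TCF7L2 and LRP6 span 204 and 169.7 kb. WNT6 met the rank limit through members only, which favours a negative ratio. In the FGF list 6 of 20 were higher and 7 lower, with a median of 0.15, and 4 were lower without PA_4P7 and 3 without either blastoid library. The FGF median was 0.23 without IVFP25, 0.099 without PA_4P7 and -0.03 centred by span. Of the 19 FGF genes that met the rank limit through both groups, 5 were higher and 7 lower. The ERK phosphatase DUSP6 stood at 32.6, 32.1 and 38.6 FPKM against 26.5 and 27.3 CPM, a ratio of 1.63 ± 0.13, and ETV4 and FGF4, given above, were the other genes with the largest positive ratios. PHLDA1 and SPRED1 were lower, at -1.83 ± 0.09 and -1.25 ± 0.09.

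In the IL6, LIF and STAT3 list, 5 of 12 were higher and 4 lower, beside 36.4% and 32.8% of all genes. The median was -0.10, or 0.00 without PA_4P7 and 0.07 centred by span. Of the 9 that met the rank limit through both groups, 3 were higher and 4 lower, with a median of -0.14. PIM1, a kinase induced by STAT3, was at 32.0, 28.8 and 19.3 FPKM against 21.6 and 22.9 CPM, with a ratio of 1.38 ± 0.20, and the feedback gene CISH and the co-regulator BCL3 had ratios of 0.87 ± 0.05 and 0.85 ± 0.07. CISH and BCL3 met the rank limit through pESCs only, which favours a positive ratio. The signal-transducing receptor IL6ST, at 5.35, 7.14 and 7.85 FPKM against 66.1 and 65.9 CPM, and the kinase JAK2 were lower, with ratios of -1.34 ± 0.08 and -0.79 ± 0.06, and JAK2 was -0.31 centred by length and -0.18 centred by span. Both media contained IL-6 and its soluble receptor, at lower concentrations in the blastoid medium, and only the blastoid medium contained LIF. The part of these factors was not tested.

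Glycolysis genes stood nearer the top in pESCs. Of 18 tested, 15 were higher in pESCs, 13 by at least 1, beside 36.4% and 8.43% of all genes. None was lower, and the median was 1.41, with 14 to 16 higher over 24 alternative settings. ALDOA (aldolase) measured 262, 262 and 249.8 FPKM against 144 and 148 CPM, with a ratio of 2.30 ± 0.11 and adjusted p = 1.72e-05. GPI and LDHA followed at 2.195 ± 0.11 and 1.83 ± 0.30. In contrast, the hypoxia-responsive list had 4 of 16 higher and 5 lower, beside 36.4% and 32.8% of all genes. Its median was -0.05, or -0.09 without PAP25. Of the 15 that met the rank limit through both groups, which leave out ADM, 4 were higher and 4 lower. EGLN3, BNIP3 and PDK1 were higher, at 1.38 ± 0.20, 1.04 ± 0.15 and 0.99 ± 0.12, and ADM, CA9 and MXI1 lower, at -0.59 ± 0.06, -0.59 ± 0.06 and -0.58 ± 0.11. pESCs were kept at a lower oxygen level than blastoids, which cannot be told apart from the other differences and was not tested.

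Cell cycle genes were higher in pESCs in 14 of 20 cases and lower in 3, beside 36.4% and 32.8% of all genes, with a median of 0.70. The replication helicase subunits MCM4, MCM5 and MCM3 had ratios of 2.11 ± 0.11, 1.89 ± 0.14 and 1.65 ± 0.15, with MCM4 at 97.8, 107 and 97.8 FPKM against 72.0 and 73.5 CPM. In the other blastoid cells MCM4 was at 40.3 and 42.5 CPM. The cyclin-dependent kinase inhibitor CDKN1C and the D cyclins CCND2 and CCND1 were lower, at -1.18 ± 0.10, -1.09 ± 0.08 and -0.55 ± 0.09. In the amino acid and ATF4 list 4 of 12 were higher and 2 lower, with a median of 0.20 that was 0.09 without blastoid library 1, -0.06 centred by length and -0.12 centred by span. The asparagine synthetase gene ASNS stood at 99.8, 122 and 112 FPKM against 60.7 and 63.4 CPM, a ratio of 2.51 ± 0.14, and SHMT2 and PHGDH of serine metabolism had ratios of 1.88 ± 0.10 and 1.47 ± 0.10, while DDIT3 and SLC7A11 were lower, at -0.79 ± 0.06 and -0.54 ± 0.06. Centred by length, SLC7A11 was -0.06 with adjusted p = 0.349.

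Most genes of the immediate early and heat shock list were lower in pESCs. Of 14 tested, 10 were lower in pESCs and 4 higher, beside 32.8% and 36.4% of all genes, with a median of -0.62. Of the 13 that met the rank limit through both groups, 9 were lower and 4 higher. EGR1, JUN and JUNB, transcription factors induced within minutes, were lower at -2.16 ± 0.20, -2.12 ± 0.16 and -1.71 ± 0.11, with EGR1 at 17.1, 9.91 and 11.9 FPKM against 159 and 134 CPM. FOS, of the same kind, was higher at 0.75 ± 0.14, and was named after its value was seen. The chaperone genes HSPA8, DNAJB1 and HSPH1 were higher, at 1.73 ± 0.26, 1.50 ± 0.09 and 1.19 ± 0.12, with HSPA8 at 1201, 1477 and 1119.8 FPKM against 1547 and 1342 CPM. pESCs were detached with TrypLE and lysed, whereas blastoids were dissociated with trypsin and loaded as live cells, and these steps cannot be told apart from the other differences. Among 10 p53 targets, GDF15 was higher at 0.27 ± 0.08 and ZMAT3 lower at -0.32 ± 0.07, with 8 not called and a median of 0.11, or 0.05 without IVFP25, 0.08 without blastoid library 2 and -0.10 centred by span. Without PAP25 or PA_4P7, 3 or 2 were higher, and without IVFP25 2 were lower. Their adjusted p became 0.152 and 0.0605 without blastoid library 1, and 0.0837 for GDF15 without blastoid library 2. Centred by length, GDF15 was 0.11 with adjusted p = 0.183 and ZMAT3 0.16 with adjusted p = 0.0914.

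Epithelial adhesion genes had a list median near that of all genes. Of 11 tested, 3 were higher and 2 lower, beside 36.4% and 32.8% of all genes, and 6 were not called. The median was 0.16, and CTNNB1, given above, was the highest. Without PAP25 the median was 0.06, 4 genes were lower without IVFP25, 1 without PAP25 or either blastoid library, and 5 were higher without PA_4P7. E-cadherin, CDH1, stood at 166, 119.9 and 145 FPKM against 208 and 188 CPM, a ratio of 0.88 ± 0.17, and N-cadherin, CDH2, at 20.1, 28.3 and 31.9 FPKM against 149 and 137 CPM, a ratio of -1.21 ± 0.21. Centred by span, CDH2 was -0.50 with adjusted p = 0.0562. P-cadherin, CDH3, was higher at 0.50 ± 0.14 and the claudin gene CLDN4 lower at -0.84 ± 0.30. The adjusted p of CDH3 became 0.14 without blastoid library 2, and that of CLDN4 became 0.0684, 0.182 and 0.134 without PAP25 and blastoid libraries 1 and 2. In members with at most 2 GATA3 UMIs CLDN4 was -0.15 with adjusted p = 0.672, and centred by length CDH3 was 0.34 with adjusted p = 0.0691.

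DNA methylation and chromatin genes were called in both directions, with 5 of 14 higher and 4 lower, beside 36.4% and 32.8% of all genes. The median was 0.03, which was 0.00 to 0.08 without 1 library and 0.27 centred by span. Without DNMT3B, a gene of the rule, the counts were 4 and 4 of 13 and the median -0.05. UHRF1, which recruits the maintenance methyltransferase, stood at 46.0, 45.7 and 53.4 FPKM against 67.6 and 63.3 CPM, a ratio of 1.06 ± 0.14, and HDAC1 had 0.86 ± 0.12. TET1, which oxidizes methylcytosine, was at 8.21, 15.2 and 12.2 FPKM against 133 and 122 CPM, a ratio of -2.003 ± 0.17, and TET2 and SUZ12 were lower at -1.04 ± 0.07 and -0.66 ± 0.08.

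In the neural list 6 of 9 genes were lower and 1 was higher, beside 32.8% and 36.4% of all genes, with a median of -0.55. Without CRABP1, which the rule capped, 5 of 8 were lower and 1 was higher, with a median of -0.46. Of the 7 that met the rank limit through both groups, CRABP1 included, 4 were lower and 1 higher, with a median of -0.58. MAP2, STMN2 and SOX11 were lower, at -2.81 ± 0.12, -1.83 ± 0.13 and -0.90 ± 0.15. MAP2, a neuronal microtubule protein, was at 149 and 145 CPM in members and 339 and 363 CPM in other cells and spans 306 kb. NES, an intermediate filament of progenitors, was higher at 1.59 ± 0.09. Of 9 fibroblast and mesenchyme genes none was higher and 3 were lower, or 1 of the 6 that met the rank limit through both groups. The median of -0.11 became 0.09 without PAP25, where 1 gene was higher, 0.11 without blastoid library 1, -0.37 without blastoid library 2, -0.21 without IVFP25 and -0.22 without PA_4P7. COL3A1, a fibrillar collagen, was at 0.0159 and 0.0182 FPKM in IVFP25 and PAP25 and listed at 0 in PA_4P7, and at 35.3 and 16.1 CPM in members and 135 and 80.5 CPM in other cells, with a ratio of -1.65 ± 0.22. COL3A1 and DCN met the rank limit through members only, which favours a negative ratio. Reads of the mouse feeders were not separated from the bulk values, and their part was not tested. DCN and COL1A2 had ratios of -0.60 ± 0.21 and -0.50 ± 0.11, and the adjusted p of DCN became 0.0607 without IVFP25 and 0.0961 without blastoid library 2. COL1A2 was -0.26 with adjusted p = 0.0581 in members with at most 2 GATA3 UMIs.

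Several imprinted genes differed between the pESC libraries. SNRPN, a maternally silenced splicing gene, measured 100.4, 0 and 0.00688 FPKM in IVFP25, PA_4P7 and PAP25 and 0 and 0.134 CPM in members. NNAT, also expressed from the paternal copy, measured 237, 2.04 and 1.99 FPKM against 0.168 and 0.201 CPM. PEG3 and PEG10, paternally expressed as well, were at 5.60 and 5.47 FPKM in IVFP25, listed at 0 in PA_4P7 and PAP25, and at 0 to 0.067 CPM in members. IVFP25 was thus the only pESC library with more than 3 FPKM of any of these 4 genes, and the members' values were at most 0.201 CPM. Other paternally expressed genes did not all share this order, since PLAGL1 measured 2.93, 0.735 and 0.348 FPKM and DLK1 2.43, 0.0572 and 0.508 FPKM, but MEST 4.70, 6.26 and 0.692 FPKM and IGF2 0.254, 0.240 and 1.41 FPKM. With 1 library of that kind no test of the pattern was made, and the adjusted p of the group comparison was 0.349 for SNRPN and 0.196 for NNAT, which became 0.000207 for NNAT without IVFP25, where the ratio was 0.82.

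MEG3, a maternally expressed noncoding RNA, was lower in pESCs at 2.61, 14.0 and 6.60 FPKM against 55.8 and 45.7 CPM. Its ratio was -0.90 ± 0.29 with adjusted p = 0.0318, which became 0.0507, 0.0716, 0.151 and 0.0781 without IVFP25, PAP25 and blastoid libraries 1 and 2. Over the list, 1 of 11 tested genes was higher and 3 were lower, beside 36.4% and 32.8% of all genes. The median was 0.24, or -0.17 for the 7 genes that met the rank limit through both groups. Without IVFP25 the median was 0.04, and 2 genes were higher without IVFP25 or PA_4P7 and 3 without PAP25. IGF2R was higher at 0.69 ± 0.14, and CDKN1C and PHLDA2 lower at -1.18 ± 0.10 and -0.39 ± 0.05, with PHLDA2 at -0.13 with adjusted p = 0.0837 in members with at most 2 GATA3 UMIs. SNRPN, NNAT, PEG3, PEG10, PLAGL1, DLK1, MEST and IGF2 were named after their values were seen.

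**Figure D5:**
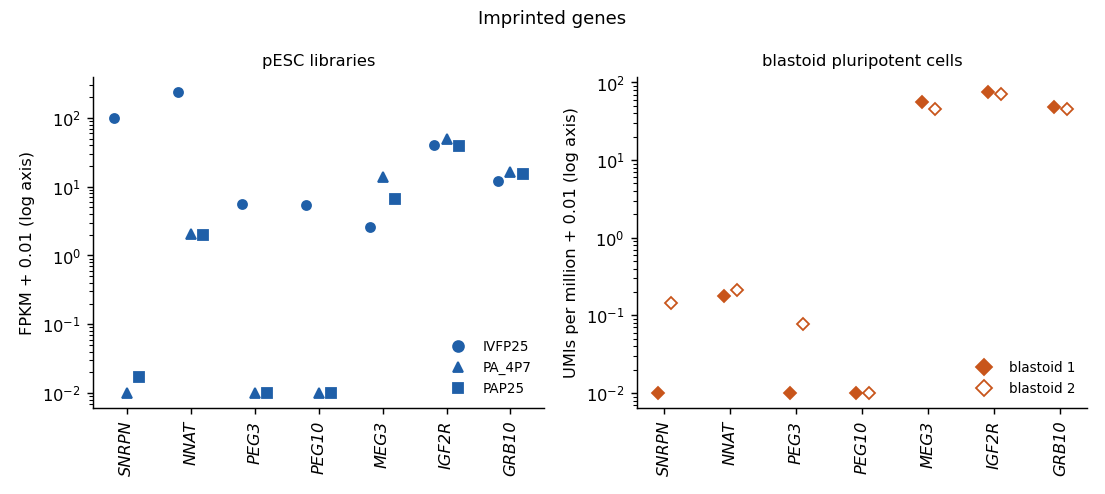
Values of imprinted genes in each library on log axes after adding 0.01, in FPKM for pESCs (left) and in CPM for members (right), 1 point per library. IVFP25 stands at 100.4 FPKM for SNRPN and 237 for NNAT, and PA_4P7 and PAP25 are at or below 2.04 FPKM for both genes. FPKM and CPM have no common unit.

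Some further ratios kept their sign and call but became smaller by over 1.5 times. Centred by gene span, the ratios were LRP6 -0.98, MAP2 -1.64, TET2 -0.43, MXI1 -0.36, TDGF1 0.75, ZIC2 0.61, BAMBI 0.48, BNIP3 0.67, CISH 0.54, BCL3 0.48, FGF4 0.41, FOS 0.49 and KLF5 0.36. Centred by length they were SMAD2 -1.38, SKIL -0.83 and HDAC1 0.55, with TET2 at -0.20. In members with at most 2 GATA3 UMIs they were HAND1 -1.01, SFN -0.44, TFAP2C -0.52, WNT6 -0.76, S100A6 -2.43, NTRK2 -2.97, UPTI -2.55 and SLC7A11 -0.24.

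Among the genes highest in pESCs, most were mitochondrial features. Of the 10 highest in pESCs, 5 were the mitochondrial genes ATP8, ND6, ND3, ND2 and ND4L, with ratios from 7.62 to 10.20, and 3 were unnamed mitochondrial features. Of 40 tested features that are mitochondrially encoded or named as transfer RNA, 35 were higher and none lower. The remaining pair, H3F3A and ATP5G3, encode a variant histone and an ATP synthase subunit, and had 0 UMIs in every barcode above the minimum against 933, 934 and 779 FPKM and 456, 347 and 350.5 FPKM. The direction of this pair was thus fixed by the filter.

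The 10 lowest were ZC3H10, CXCL14, RPS2, HS3ST4, NRG3, UPTI, GPC6, NTRK2, S100A6 and EFNA5, with ratios from -7.92 to -4.42. CXCL14, a chemokine, measured 0.750, 0.0859 and 0.307 FPKM against 1075 and 1191 CPM, with 6567 and 6052 CPM in other cells and 7000.1 and 6269.8 CPM in droplets with 10 to 100 UMIs. UPTI, a trypsin inhibitor, was at 0.538, 0.353 and 1.41 FPKM against 313 and 371 CPM, with 1223 and 1206 CPM in other cells. ZC3H10, RPS2 and S100A6 likewise stood higher in such droplets than in members, as RPS2 shows at 9103 and 10076 CPM against 6444 and 6896 CPM. HS3ST4, NRG3, GPC6, NTRK2 and EFNA5 span 288 to 1120 kb.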

How the data were processed

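Bulk RNA-seq of 3 pESC cultures and droplet-based 3′ single-cell RNA-seq of 2 blastoid samples were used. The authors trimmed the bulk reads with Trim Galore 0.6.4, mapped them to susScr11 with HISAT2 2.2.1 and quantified RefSeq transcripts with StringTie 2.2.1, and the deposited values are FPKM per transcript, with no read depth given. The authors counted UMIs with Cell Ranger 7.1.0, and the deposited matrices hold raw counts for every barcode, with 289452283 and 302211552 UMIs. The intron setting of that counting is not given in the sources used here. The submitters' processing notes also name Seurat 4.3.0. The members' sums held 17869222 and 29797041 UMIs.

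FPKM were summed per gene symbol, and member counts per library. The 29886 symbols shared by both tables were ranked in each library, with ties given their mean rank. Genes were kept where the mean of the groups' log2 ranks was that of rank 15000 or nearer the top, and the negative log2 rank was fitted with limma 3.58.1 in R 4.3.3, with the mean-variance trend and Benjamini-Hochberg adjustment, on 3 pESC and 2 blastoid libraries with no covariate. The ± values are standard errors from this fit. The script was tested on simulated data. Free RNA was profiled from barcodes with 10 to 100 UMIs. Collagen-rich cells had at least 20 UMIs of COL3A1. No doublet caller was run and doublets were kept. Floors cover counting error only. No per-sample column was left unmapped.

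The members and gene lists were chosen with earlier results of these data known, and 1 gene was left out of its list and is not reported here. The genes named were all of the core, primed and naive lists, up to 3 genes in each direction with the largest ratio in each other list among those past an adjusted p of 0.05, and the 10 largest in each direction with no overlap of ranks, a mean rank of at most 3000 in the higher group and a symbol not starting with LOC. Alternatives changed the scale, the pseudocount (1 or 5), the filter (none, or rank 8000), the variance model, the gene universe, centring within 20 bins of transcript length or gene span, the cell limits, free RNA and the libraries.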

Additional observations from a re-analysis of the deposited data

How the results depend on the processing

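No paired analysis was possible because the bulk columns carry no replicate number that ties them to a blastoid library. Against 10140 genes called of 14657 tested, 19013 were called with no filter (12062 higher in pESCs) and 6478 with the stricter filter (3370 higher, 3108 lower), where 29886 and 8332 genes were tested. Without 1 library the count was 7525 to 10316, with 3797 to 5467 higher and 3728 to 4849 lower. The lowest counts came without a blastoid library, which leaves that arm with 1 library assumed to vary like the others. By at least 1, 1203 to 1266 were higher and 1417 to 1472 lower without 1 library. Centring by span, the limits on GATA3, on the deepest barcodes and on 3′ UTR length, the removal of mitochondrial features and the size limit of 1 were chosen after the data were seen. For the counts over all genes, the size limit was not computed on other scales than ranks, whose unit differs. Of 24 lists, 12 kept the sign of their median in all 24 alternatives.

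Of 3661 pairs of a named gene and an alternative, 3453 kept direction and call, 129 lost the call, 38 gained one and 41 changed sign, and 105 of 157 genes kept both in every alternative. The sign changes concerned 16 genes with small ratios, and the cause was not tested. KLF2 was -6.921e-05 on normal scores, -0.004206 on quantile-normalized log2 values, -0.5515 and -0.2871 with pseudocounts of 1 and 5, -0.3079 and -0.2511 centred by length and span, -0.02981 with the stricter cell limits, -0.003807 with the mitochondrial limit, -0.01655 with free RNA subtracted, -0.01632 without the deepest barcodes and -0.0332 with few GATA3 UMIs. SOX3 was -0.1735 and -0.05593 with pseudocounts of 1 and 5 and -0.1068 and -0.2348 centred by length and span. Centred by length, DNMT3A was 0.7558, ESRRB 0.08189, FGF2 0.01545, SMAD4 0.08025 and ZMAT3 0.1613. Centred by span, DLK1 was -0.1208, DNMT3A 0.2913, ESRRB 0.6933, KLF4 -0.07022, NR5A2 0.3153 and SALL4 -0.07497. With looser cell limits DNMT3A was 0.01472 and NODAL 0.04277. With stricter limits and with few GATA3 UMIs DPPA5 was 0.132 and 0.2594 and ETV5 -0.005601 and -0.2152. Without 1 library the ranges were -0.3278 to 0.03967 for DNMT3A, -0.09194 to 0.05624 for ESRRB, -0.04745 to 0.03008 for KLF2, -0.1141 to 0.01294 for NODAL, -0.01487 to 0.3349 for SMAD3 and -0.5196 to 0.03819 for ZFP42.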

Other observations

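Outside the gene lists and the genes of the rule, 21 genes were at least 5 times as abundant in members as in the other blastoid cells and at 20 or more CPM (UMIs per 1000000) in both libraries, and were picked after the values were seen. They were chosen for high values in members, which form one arm of the comparison, so the direction of their ratios as a group is not counted. Of these, 11 had a mean rank of at most 3000 in pESCs. The zinc and manganese transporter SLC39A14 measured 61.0, 82.4 and 56.8 FPKM in IVFP25, PA_4P7 and PAP25 against 37.0 and 40.3 CPM in members of blastoid libraries 1 and 2, a ratio of 2.28 ± 0.18 with adjusted p = 9.72e-05 by limma. The caveolar protein gene CAV1 had a ratio of 1.34 ± 0.10 and the zinc-finger gene ZIC5, a neighbour of ZIC2, 0.99 ± 0.14.

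Others of this group were lower in pESCs. NTM, a neuronal adhesion protein, stood at 0.410, 0.331 and 0.454 FPKM against 169 and 211 CPM, with 8.11 and 11.3 CPM in other cells, a ratio of -4.07 ± 0.12, and its gene spans 1002 kb. The kinase gene CDKL2 was at 11.8, 12.1 and 9.69 FPKM against 79.1 and 82.7 CPM and the potassium channel gene KCNG3 at 3.07, 3.85 and 2.32 FPKM against 39.3 and 40.6 CPM, with ratios of -1.26 ± 0.10 and -1.05 ± 0.08. ERAS, a RAS protein of embryonic stem cells, measured 112, 127 and 43.0 FPKM against 431 and 431 CPM, with 30.3 and 45.2 CPM in other cells and 61.0 and 116 CPM in droplets with 10 to 100 UMIs. Its ratio of -1.32 ± 0.49 had an adjusted p of 0.0514, which became 0.03 without PA_4P7 and 0.00461 without PAP25, where the ratio was smaller at -0.79.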
